A study of Homo sapiens with 4 samples.

Results

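Vehicle-only regions are stretches of the genome at which a peak of γH2AX, the histone variant H2AX phosphorylated on serine 139, was called in SK-UT-1 cells given the solvent DMSO and in none of 3 drug-treated cultures of the same cells. They were selected on the peak calls themselves. All peaks of the 4 deposited lists on chromosomes 1 to 22 and X that overlapped or touched were merged into union regions, and a region was kept where it held at least 1 peak of the DMSO list and no peak of the other 3. By this rule 29249 of 123975 union regions were vehicle-only, which is 23.6% of all union regions and 40.3% of the 72622 regions that held a DMSO peak. The other 43373 DMSO regions were also called in at least 1 treated library.

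SK-UT-1 is an established human uterine leiomyosarcoma cell line, and chromatin immunoprecipitation with sequencing (ChIP-seq) was done with an antibody to γH2AX. The treated cultures received OTS186935 at 1 µM, which by the study's title blocks SUV39H2, a methyltransferase of lysine 9 on histone H3, doxorubicin at 0.5 µM, or both at these concentrations, and the control culture received 0.1% DMSO. Each condition is 1 library from 1 cell line, so no difference between conditions has a replicate check, and no test was possible. The length of treatment, the total reads per library and the use of an input library were not stated in the labels or files read here. Intervals in brackets below are exact Clopper-Pearson 95% intervals and cover counting error only.

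As background, ATM, ATR and DNA-PK phosphorylate H2AX in the chromatin around DNA double-strand breaks and stalled replication forks, and MDC1 binds the phosphorylated tail and recruits repair factors. In cells given no damaging agent, γH2AX is also known in subtelomeric chromatin and around the transcription starts of active genes. Doxorubicin intercalates into DNA and traps topoisomerase II on broken strands, and SUV39H2 belongs to the family of enzymes that lay down methylated H3 lysine 9, the mark of heterochromatin.

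A region's absence from the treated lists depends on how many peaks each list holds. The OTS186935 list had 61928 summits, the doxorubicin list 48522, the combination list 29561 and the DMSO list 76780. Each summit is a row of its list, and a peak can hold more than 1. The lists also reach to different depths: the weakest peak had a −log10 p of 2.81 with OTS186935, 2.92 with doxorubicin, 3.08 with the combination and 2.74 with DMSO, while all 4 lists end at a −log10 q of 1. Of the DMSO regions, 55.6% (55.2 to 55.9) had no OTS186935 peak, 64.7% (64.4 to 65.1) no doxorubicin peak and 76.2% (75.8 to 76.5) no combination peak. A further 28.5% of DMSO regions were called in exactly 1 treated library, 18.7% in exactly 2 and 12.6% in all 3. Among the 32167 DMSO regions with neither an OTS186935 nor a doxorubicin peak, 90.9% (90.6 to 91.2) also lacked a combination peak.

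The sequences below are shown because in them the vehicle-only region lay over a promoter. In the complete lists, vehicle-only regions lay at transcription starts more often than regions called in 1 treated library alone. This was not particular to them, with 6.33% at a listed start against 6.91% of DMSO regions also called under a drug. Each is the RefSeq promoter window on GRCh38.p14, from 250 bases before to 50 after the listed transcription start, written 5′ to 3′ on the gene's strand. Capitals mark GC boxes (GGGCGG or its complement CCGCCC), the motif bound by SP family factors. CRY2, CNTN5, CDA and SLC25A52 were among the 20 genes of highest DMSO fold at a gene end, and MORC2 and SUV39H1 are chromatin silencing genes. The 6 were picked with their values and motifs known, to span promoters with many GC boxes, few and none.
CRY2 promoter, chr11:45847225-45847524, plus strand: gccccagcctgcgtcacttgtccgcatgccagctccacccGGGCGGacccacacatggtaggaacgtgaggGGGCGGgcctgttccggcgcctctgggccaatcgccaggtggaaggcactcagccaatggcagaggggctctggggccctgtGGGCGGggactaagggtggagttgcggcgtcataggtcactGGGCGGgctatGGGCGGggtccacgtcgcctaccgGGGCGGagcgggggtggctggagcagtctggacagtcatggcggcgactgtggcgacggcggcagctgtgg
CNTN5 promoter, chr11:99020699-99020998, plus strand: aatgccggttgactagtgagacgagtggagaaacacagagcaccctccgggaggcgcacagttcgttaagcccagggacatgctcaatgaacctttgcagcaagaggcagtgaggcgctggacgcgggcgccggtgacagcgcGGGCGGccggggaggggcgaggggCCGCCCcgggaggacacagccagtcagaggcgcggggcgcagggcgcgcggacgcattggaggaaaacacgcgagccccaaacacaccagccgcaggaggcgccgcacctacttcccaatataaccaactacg
CDA promoter, chr1:20588847-20589146, plus strand: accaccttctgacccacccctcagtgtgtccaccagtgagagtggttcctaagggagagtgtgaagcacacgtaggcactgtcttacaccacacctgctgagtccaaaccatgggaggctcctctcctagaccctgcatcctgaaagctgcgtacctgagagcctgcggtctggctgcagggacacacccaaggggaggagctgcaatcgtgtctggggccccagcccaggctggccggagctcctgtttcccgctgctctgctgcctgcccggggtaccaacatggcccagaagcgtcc
MORC2 promoter, chr22:30968725-30969024, minus strand: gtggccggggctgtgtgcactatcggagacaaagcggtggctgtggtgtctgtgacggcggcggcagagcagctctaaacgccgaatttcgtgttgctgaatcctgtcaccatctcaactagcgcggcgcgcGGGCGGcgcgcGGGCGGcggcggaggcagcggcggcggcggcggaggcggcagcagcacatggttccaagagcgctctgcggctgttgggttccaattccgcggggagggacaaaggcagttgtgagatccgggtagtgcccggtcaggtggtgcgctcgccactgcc
SUV39H1 promoter, chrX:48696484-48696783, plus strand: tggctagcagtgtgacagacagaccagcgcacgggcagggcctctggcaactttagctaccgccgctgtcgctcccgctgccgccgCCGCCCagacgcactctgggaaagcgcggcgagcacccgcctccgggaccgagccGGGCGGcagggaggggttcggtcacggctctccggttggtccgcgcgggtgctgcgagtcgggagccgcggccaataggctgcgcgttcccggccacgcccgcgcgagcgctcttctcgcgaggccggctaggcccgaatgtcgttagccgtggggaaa
SLC25A52 promoter, chr18:31760831-31761130, minus strand: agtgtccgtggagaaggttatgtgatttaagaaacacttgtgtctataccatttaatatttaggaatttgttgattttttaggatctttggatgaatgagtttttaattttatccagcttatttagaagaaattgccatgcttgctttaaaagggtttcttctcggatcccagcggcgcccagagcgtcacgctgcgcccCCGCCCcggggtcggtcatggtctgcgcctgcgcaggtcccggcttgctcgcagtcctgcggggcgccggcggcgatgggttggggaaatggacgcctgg

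The CRY2 window held 6 GC boxes and 24 CG dinucleotides at 70.3% G plus C, and the vehicle-only region at chr11:45847459-45847842 covered its last 66 bases, with the summit 172 bases past the start. CNTN5 had its whole window covered, 2 GC boxes, 30 CG dinucleotides and 66% G plus C. MORC2 had 2 GC boxes and 67.7% G plus C, and SUV39H1 2 GC boxes and 72%. CDA had no GC box and 8 CG dinucleotides at 62% G plus C, with 244 bases of its window covered. SLC25A52 was the poorest of the 6 in G plus C, with 51.3% and 1 GC box. A motif match says only that the letters are present.

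The vehicle-only regions were the weaker end of the DMSO list. The fold enrichment at the summit, as the authors' peak caller gave it, had a median of 4.13 in vehicle-only regions and 4.73 in DMSO regions also called under a drug, with 5th to 95th percentiles of 2.66 to 6.32 and 2.75 to 7.67. The median −log10 q was 2.75 in vehicle-only regions and 3.99 in the others. These values come from the calls that chose the regions, so they describe the regions and support nothing further. A summit pileup, the number of fragments that cover the summit, was solved from each peak's fold and p. It had a median of 6 fragments in vehicle-only regions and 9 in the other DMSO regions. At least 15 fragments were reached by 8.78% of vehicle-only regions, against 17.4% of the others.

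**Figure D1:**
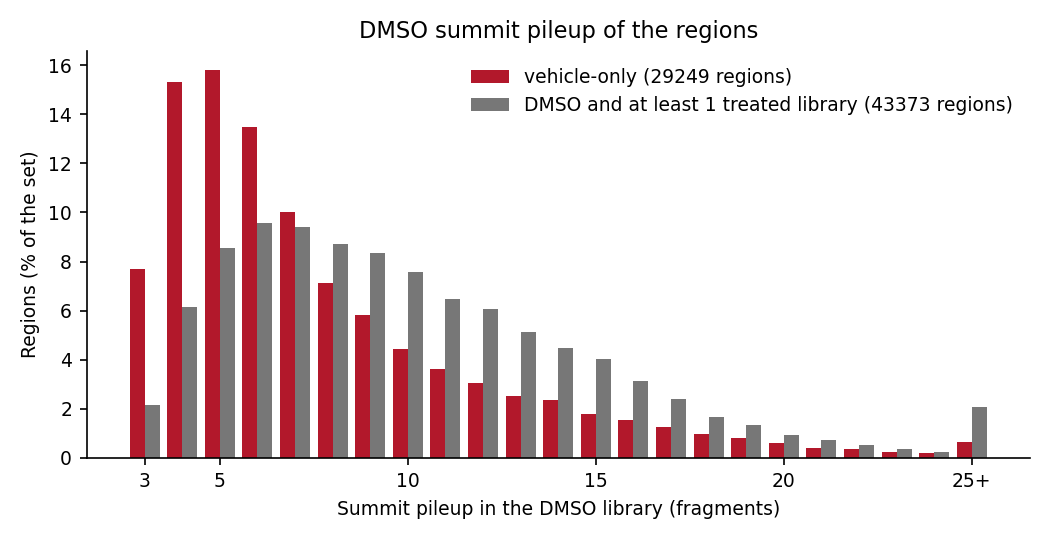
Share of regions (y axis, % of each set) by DMSO summit pileup (x axis, fragments, with 25 and above in the last bar) for 29249 vehicle-only regions and 43373 regions called in DMSO and at least 1 treated library. Vehicle-only regions gather at 4 to 6 fragments, with a median of 6, and the other DMSO regions have a median of 9.

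The vehicle-only regions were narrower than the other DMSO regions and mostly held 1 summit, as did the regions called in 1 treated library alone. Their median width was 415 bp, against 521 bp for the other DMSO regions, and 99.2% of them held a single DMSO summit, against 92%. They covered 13.5 Mb in all, against 26.1 Mb for the others. In 44.9% of vehicle-only regions the local background stood at the library's floor of 0.454 fragments, against 25.3% of the other DMSO regions. Regions called with OTS186935 alone had a median width of 397 bp and 99.6% with a single summit. Those with doxorubicin alone had 360 bp and 99.9%, and those with the combination alone 352 bp and nearly all. The background was at the library's own floor in 44.7%, 47.4% and 25.2% of these 3 sets in the same order. Regions that held 1 DMSO summit were vehicle-only in 42.1% of cases (41.7 to 42.5), those with 2 summits in 7.19% (6.33 to 8.12) and those with 3 or more in 1.79% (7 of 391). The contrasts in summit number and width are partly built in by the merging. A treated peak can join separate DMSO peaks into 1 region, and that region is then not vehicle-only. How many shared regions were joined in this way was not counted.

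Strong peaks were among them too. Of the vehicle-only regions, 3846 (13.1%) had a −log10 q of 5 or more, and 136 had 10 or more, against 14794 (34.1%) and 1628 of the other DMSO regions. The highest −log10 q was 16 in a vehicle-only region and 50.2 in the others. At a −log10 q of 1 to 2, 60.8% (60 to 61.6) of DMSO regions were vehicle-only, and the share was 48.5% at 2 to 3, 36.9% at 3 to 5, 22% (21.4 to 22.6) at 5 to 10 and 7.71% (6.51 to 9.05) at 10 or more. Within a class the share was highest where the background was lowest. At a −log10 q of 5 to 10 it was 36% (34.2 to 37.9) at the floor background, 21.3% above the floor up to 2 times its value, and 18% (17.2 to 18.8) over 2 times the floor.

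Every library had regions of its own, and they thinned out with strength in the same way. OTS186935 alone called 20306 of its 59465 regions (34.1%), doxorubicin 15350 of 47216 (32.5%) and the combination 7520 of 29049 (25.9%). At a −log10 q of 5 to 10, 22% of DMSO regions were called in DMSO alone, 14.8% of OTS186935 regions in OTS186935 alone, 10.1% of doxorubicin regions in doxorubicin alone and 13.3% of combination regions in the combination alone. When all 4 lists were cut to the 29561 strongest summits by −log10 p, each library had the same number of summits. The vehicle-only share was then 35.4% (34.9 to 36.0), the lowest of the 4. The share called in 1 library alone was then 36.1% for OTS186935, 38.9% for doxorubicin and 44.5% (43.9 to 45.1) for the combination. The order of the 4 libraries was thus the reverse of that in the complete lists, although the intervals of DMSO and OTS186935 (35.5 to 36.6) overlapped. The cut left the combination list whole and dropped the weaker summits of the other lists, and weaker regions were more often called in 1 library alone. Part of the reversed order is therefore built in by the cut. In the complete lists the DMSO share was the highest of the 4 in every class of −log10 q. The higher share of regions called in DMSO alone was thus seen in lists of unequal length, and the equal lists cannot show whether it depends on list length.

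**Figure D2:**
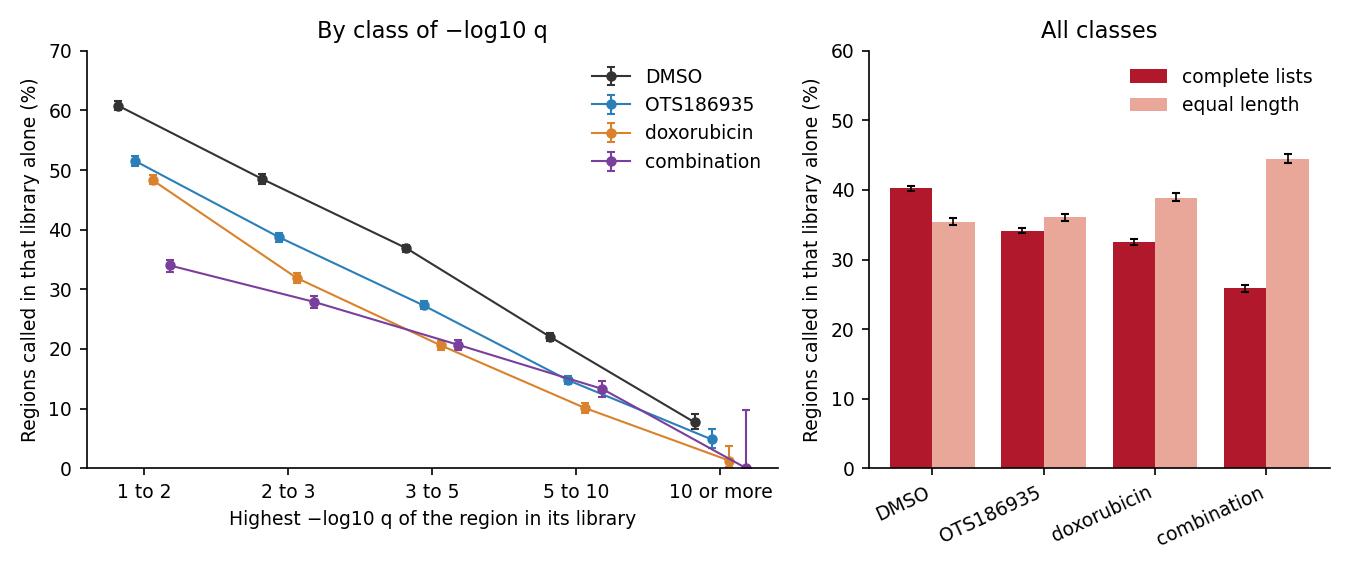
Left, share of a library's regions that were called in that library alone (y axis, %) by the region's highest −log10 q in that library (x axis, 5 classes). Right, the same share over all classes for complete lists and for lists cut to 29561 summits each. Bars and points carry exact 95% intervals for counting error. The DMSO share is the highest of the 4 in the complete lists, at 40.3%, and the lowest, at 35.4%, in lists of equal length.

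The rule has a sharp edge at an overlap of a single base. The 5 vehicle-only regions nearest to a treated peak had gaps of 1 or 2 bp. The region at chr21:15065351-15065746 (4.48-fold, −log10 q 3.24) ended 1 bp from a doxorubicin peak, and chr6:25897776-25898124 (2.75-fold) lay 1 bp from an OTS186935 peak. Next came chr1:22178293-22178713 and chr16:1933341-1933690, each 2 bp from an OTS186935 peak, and chr15:70802897-70803377, 2 bp from a combination peak. Just outside the rule, the DMSO peaks of chr4:37890481-37891401 (3.42-fold), chr5:66596493-66597704 (4.13-fold) and chr6:166168408-166169538 (3.22-fold) overlapped an OTS186935 peak by 1 bp. Few regions stood that close: 177 vehicle-only regions (0.605%) lay within 100 bp of a treated peak and 10.9% within 1 kb, and the median distance to the nearest treated peak was 6557 bp. On the other side, 24 of the 43373 regions shared with a drug rested on an overlap of 1 to 10 bp.

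Vehicle-only regions lay on every chromosome examined. The vehicle-only share of DMSO regions was between 37% (35.1 to 38.9) on chromosome X and 43.2% (42.0 to 44.4) on chromosome 1, apart from chromosome 13 with 52.6% (49.2 to 56.0; 445 of 846). Chromosome 13 also had the fewest DMSO regions per length, 7.4 per Mb, and the lowest median −log10 q, 2.75. Among DMSO regions with a −log10 q of 5 or more its share was 25.3% (16.7 to 35.5), an interval that holds the share of each of the other chromosomes examined from 17.1% on X to 25.9% on chromosome 22. Vehicle-only regions were densest on chromosome 19, at 22.4 per Mb, which also had the most DMSO regions, 60 per Mb. Copy number of the cell line was not measured here.

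**Figure D3:**
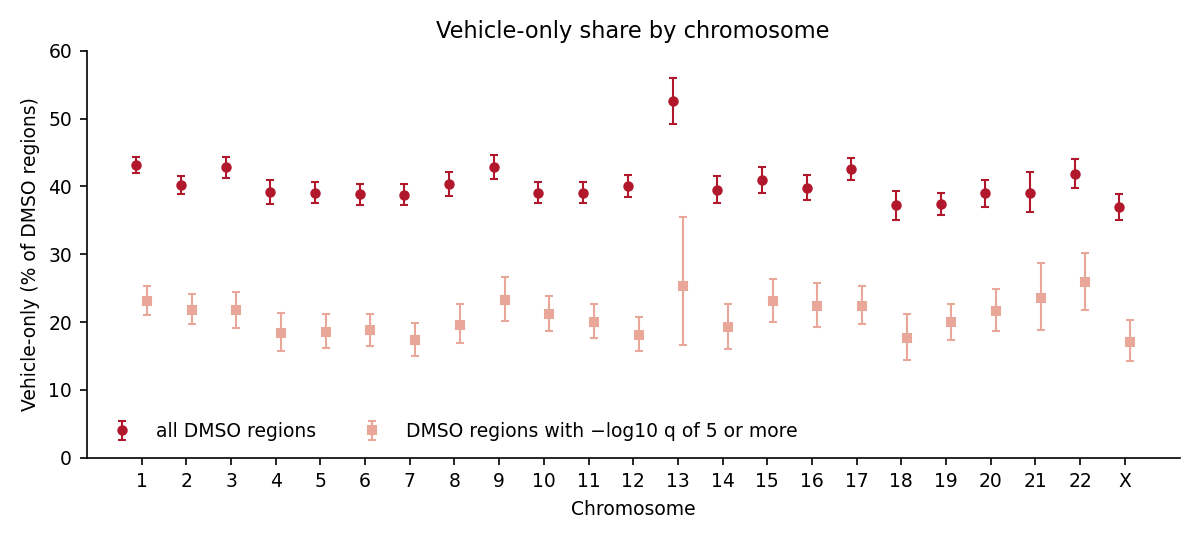
Share of DMSO regions that were vehicle-only (y axis, %) by chromosome (x axis), for all DMSO regions and for those with a −log10 q of 5 or more; bars are exact 95% intervals for counting error. Chromosome 13 stands at 52.6% over all regions and at 25.3% among the stronger ones.

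Along the chromosomes, vehicle-only regions were less frequent at the tips than the other DMSO regions, as were the regions called in 1 treated library alone. Regions within 0.5 Mb of a chromosome end made up 1.21% (1.09 to 1.35) of vehicle-only regions and 3.05% (2.89 to 3.22) of the other DMSO regions. Regions called in 1 library alone were close to the vehicle-only value, with 1.33% for OTS186935, 1.1% for doxorubicin and 1.05% for the combination. Within 5 Mb of an end the shares were 14.7% of vehicle-only regions and 18.5% of the other DMSO regions, and 14.7%, 13.2% and 12.8% for the 3 treated libraries in the same order. Of the DMSO regions within 5 Mb of an end 35% (34.2 to 35.8) were vehicle-only, against 41.4% (41.0 to 41.7) farther in, and the share was lower near the ends in each of the 5 classes of −log10 q. Among 875 bins of 1 Mb with at least 30 DMSO regions, the median vehicle-only share was 39.7%, with 5th and 95th percentiles of 25% and 53.7%. The lowest bin was chrX:155000001-156000000 at the end of the long arm, with 1 of 40, followed by chr7:159000001-160000000 with 4 of 48 and chr20:64000001-65000000 with 5 of 48. The highest was chr1:24000001-25000000, with 36 of 56 (64.3%, 50.4 to 76.6).

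The deepest vehicle-only summits were, in contrast, near chromosome ends. Of the 188 vehicle-only regions with 25 or more fragments, 170 (90.4%) lay within 5 Mb of an end and 85 within 0.5 Mb. The same share was not computed for the 904 other DMSO regions of that depth. Whether it is particular to vehicle-only regions was therefore not tested. The region with most fragments, chr20:64227155-64227493, had 75 fragments over a local background of 23.7, a 3.07-fold enrichment. The next, chr12:174721-175478, had 69 fragments over 34.2, a 1.99-fold enrichment. High pileup there went with high background, and none of the 5 deepest regions exceeded 3.07-fold.

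The class of the nearest DMSO region made little difference. Where the nearest other DMSO region within 10 kb was vehicle-only, a DMSO region was itself vehicle-only in 39.8% of cases (39.0 to 40.5), against 37.9% (37.3 to 38.5) where that neighbour was shared with a drug. At distances of 10 to 100 kb the shares were 44% and 40.9%, and over 100 kb they were 42.1% (38.9 to 45.4) and 44.2% (41.4 to 47.0), in the other order and with intervals that overlapped.

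Of the 10 vehicle-only regions of highest fold, 7 lay outside protein-coding genes, at distances from 433 to 530728 bp, and 3 lay inside one. The highest fold was 11.5, at chr18:15165013-15165434 (17 fragments over a background of 0.563, −log10 q 15.7), and its nearest protein-coding gene, ANKRD30B, lay 223877 bp away. The next were chr7:4370778-4371333 (11.3-fold), 101777 bp from SDK1, and chr2:209145148-209145514 (10.9-fold), 278532 bp from MAP2, a gene of a microtubule-binding protein of neurons. A region inside DISC1, a gene for a scaffold protein of developing neurons, reached 10.8-fold and lay 5134 bp from a combination peak. A region 228561 bp from PIEZO2, a gene for a mechanically gated ion channel, reached 10.6-fold with 19 fragments. Others were 71872 bp from DDX53 (10.5-fold, 402 bp from an OTS186935 peak), 433 bp from KCNJ18, 530728 bp from ERVFC1, inside ATRN (10.4-fold, 838 bp from an OTS186935 peak) and inside CKMT2 (10.2-fold), the gene of a mitochondrial creatine kinase. The regions near DDX53 and inside ATRN were the 2 of these 10 within 1 kb of a treated peak.

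Most vehicle-only regions lay in genes, in nearly the proportion of the rest of the DMSO list. The summit lay in the body of a protein-coding gene in 58% (57.4 to 58.5) of vehicle-only regions and in 56.5% (56.1 to 57.0) of the other DMSO regions, and in no annotated gene in 31.6% and 31.7%. At least 1 vehicle-only region lay in the body of 8684 of 19974 protein-coding genes (43.5%). Genes with a long listed extent led this count. PTPRN2, a receptor-type phosphatase family gene of secretory granules, held 31 vehicle-only regions among 127 DMSO regions, and DLGAP2, a postsynaptic scaffold gene, 25 of 113. CDH4, the gene of a classical cadherin, held 24 of 67, GSE1, a gene of a chromatin co-regulator, 23 of 44, and RANBP2 23 of 55 within its listed extent of 1.12 Mb. The RANBP2 count rests on that extent, which was not checked and may take in neighbouring genes. RBFOX3, a splicing factor gene of neurons, held 23 of 46, AGAP1 22 of 57, SORCS2 22 of 50, CAMTA1 21 of 55 and SDK1 19 of 42. PTPRN2 and DLGAP2, both within a few Mb of a chromosome end, had low vehicle-only shares of 24.4% (17.2 to 32.8) and 22.1% (14.9 to 30.9), whereas GSE1 had 52.3% (36.7 to 67.5).

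At the ends of genes, vehicle-only regions were a little scarcer than other DMSO regions and more frequent than regions called in 1 treated library alone. The summit lay within 1 kb of an annotated end of a protein-coding gene in 8.36% (8.05 to 8.69) of vehicle-only regions and 9.65% (9.37 to 9.93) of the others. The share was 5.51% for OTS186935 alone, 4.37% for doxorubicin alone and 4.6% for the combination alone. At a −log10 q of 1 to 2, DMSO regions at gene ends were vehicle-only in 62.5% of cases, against 60.5% farther inside gene bodies and 60.9% elsewhere. At 5 to 10 these values were 15.3%, 24.4% and 20.5%. The summit was used in place of the whole region because regions shared with a drug are wider, a choice made after both values had been seen. Counting any overlap with the windows, 3022 protein-coding genes (15.1%) had a vehicle-only region at an end, against 7735 (38.7%) with any DMSO peak there. In 2202 of them (11% of all genes) the windows at both ends held no treated peak at all, and in the other 820 a treated peak lay elsewhere in the same windows. So for 27.1% of these genes the locus was not free of γH2AX calls under the drugs.

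Among the 20 genes of highest fold at an end, signal varied between 7.52-fold and 10.5-fold and between 10 and 18 fragments. KCNJ18, the gene of an inward rectifier potassium channel, had the highest fold, 10.5, at its 3′ end, but it is nearly identical to KCNJ12, so reads may have been split between the copies and the value is uncertain. SCNN1G, which encodes the gamma subunit of the epithelial sodium channel, followed with 9.47-fold. TSC1, whose product hamartin restrains mTORC1 signalling, had 9.08-fold at its transcription start, with 18 fragments over a background of 1.09 and a −log10 q of 12.3. The TSC1 region at chr9:132944062-132944419 lay 4072 bp from the nearest OTS186935 peak, 5908 bp from a doxorubicin peak and 4115 bp from a combination peak.

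CRY2, a repressor of the circadian clock, had 8.5-fold with 12 fragments, and its nearest treated peak, of OTS186935, was 6204 bp away. The ABC transporter gene ABCC5 had 8.76-fold at its 3′ end and the sperm acrosome gene SPACA3 8.81-fold. TMEM184B had 8.3-fold and the neuronal adhesion gene CNTN5 8.25-fold, both at a listed start. SOAT2, which esterifies cholesterol, and SLC3A2, the heavy chain of several amino acid transporters, each had 8.21-fold. SLC3A2 also had 1 OTS186935 peak (4.22-fold) elsewhere in its windows, GLIPR2 (7.97-fold) 1 OTS186935 peak (3.56-fold) and CDA (7.57-fold), the cytidine deaminase gene, 1 combination peak (3.05-fold). The remaining 17 of the 20 genes had no treated peak in their windows, but an OTS186935 peak lay 858 bp from the SPACA3 region. CCDC28A, CDA, NEGR1, PMP22 and SLC25A52 share the value 7.57, since each had 10 fragments over the floor background. KIF13B, TRIML2, TNFAIP8L2 and EFHC2 completed the 20, at 7.74, 7.59, 7.52 and 7.52-fold in that order. All 20 remained vehicle-only when the 4 lists were cut to equal length. That outcome was fixed in advance, because the cut drops only weaker peaks and these 20 had strong DMSO peaks.

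More vehicle-only regions than regions called under 1 drug treatment alone lay near transcription starts. Starts were taken from RefSeq promoter windows, which were listed for 15712 of the 19974 genes, so the class away from starts includes starts that were not listed. The summit lay within 1 kb of a listed start in 6.33% (6.05 to 6.61) of vehicle-only regions, in 3.55% (3.3 to 3.81) of regions called with OTS186935 alone, in 2.5% (2.26 to 2.76) of those with doxorubicin alone and in 2.91% (2.54 to 3.32) of those with the combination alone. The share was 6.91% (6.68 to 7.16) in DMSO regions also called under a drug. With lists of equal length the contrast was smaller: 4.91% (4.5 to 5.35) of regions called in DMSO alone, 3.85% (3.48 to 4.24) for OTS186935, 3.75% (3.41 to 4.12) for doxorubicin and 4.28% (3.94 to 4.65) for the combination. The intervals of DMSO and the combination overlapped there.

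The vehicle-only share at starts depended on the strength of the peak. At a −log10 q of 1 to 2, DMSO regions near a listed start were vehicle-only in 65.3% of cases (62.4 to 68.1), against 60.5% (59.7 to 61.3) elsewhere. At 2 to 3 the values were 49.3% and 48.5%. The order then turned: at 3 to 5 the share was 32.4% (30.1 to 34.7) near starts and 37.2% (36.6 to 37.9) elsewhere, and at 5 to 10 it was 12.9% (10.9 to 15.1) and 22.6% (21.9 to 23.2). In the treated libraries the share called in that library alone was lower near starts than elsewhere in each of the 4 classes below 10. At 1 to 2 it was 37.7% near starts and 52.2% elsewhere for OTS186935, 25.2% and 49.4% for doxorubicin, and 20.3% and 34.9% for the combination.

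**Figure D4:**
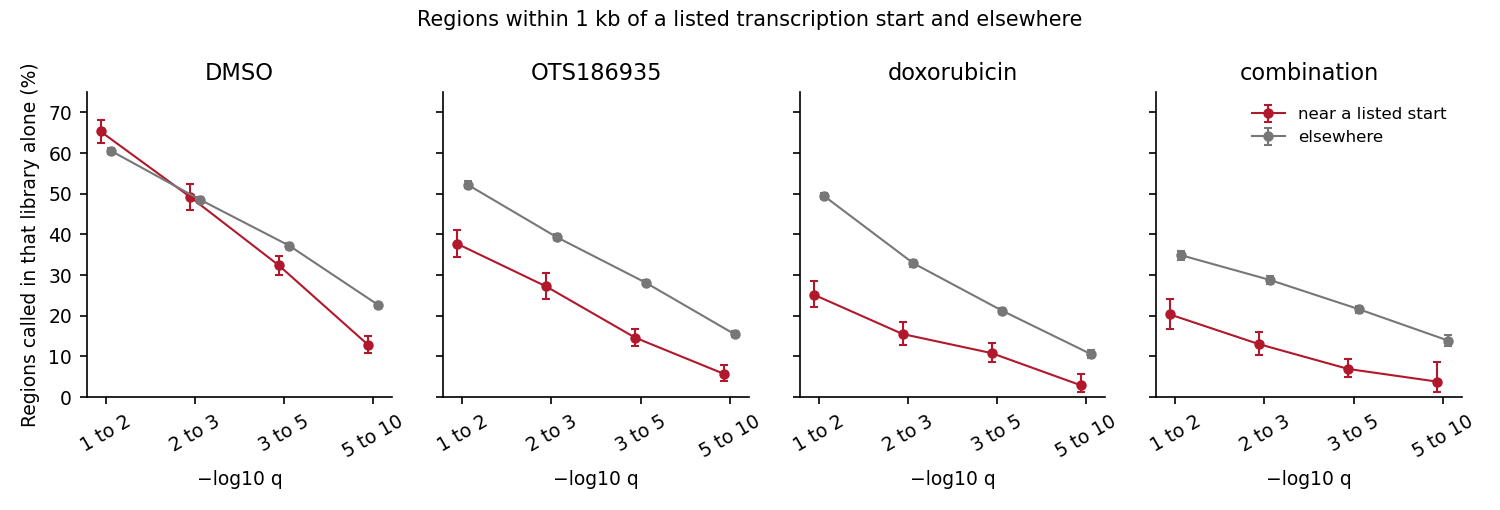
Share of a library's regions called in that library alone (y axis, %) by −log10 q (x axis, 4 classes below 10), for summits within 1 kb of a listed transcription start and elsewhere, in complete lists; bars are exact 95% intervals for counting error. For DMSO the points near starts lie above the others at 1 to 2 (65.3% and 60.5%) and below them at 5 to 10 (12.9% and 22.6%), whereas for each treated library they lie below in all 4 classes.

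Vehicle-only summits near starts gathered downstream of them. By distance from the nearest listed start, in steps of 250 bp, they were most frequent 250 to 500 bp past the start, with 17.7 per 1000 vehicle-only regions, and 15.1 per 1000 lay in the first 250 bp past it. The other DMSO regions peaked in the first 250 bp, with 18.6 per 1000, and had 14.2 per 1000 at 250 to 500 bp. On the upstream side the last 250 bp held 7.25 per 1000 vehicle-only regions and 9.68 per 1000 of the others.

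Vehicle-only promoters were rich in G plus C. A vehicle-only region overlapped 1046 of 22132 listed promoter windows (4.73%). In the 1039 distinct windows with a vehicle-only region and no other DMSO region, the median G plus C was 67.7%, against 65% in 2418 windows under a DMSO region also called with a drug and 62.3% in all 22012 distinct windows. The median was 65.3% under regions called with OTS186935 alone, 62% with doxorubicin alone and 62.7% with the combination alone. The median number of CG dinucleotides per window was 27 in vehicle-only promoters, against 22 in the windows shared with a drug and 21 in all windows. A GC box on either strand stood in 70% (67.1 to 72.7) of vehicle-only windows, against 63.2% (61.2 to 65.1) of the shared ones and 56.3% of all.

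The CCAAT and TATA box letters were less frequent in vehicle-only windows than in all windows, and the other motifs searched were not clearly so. The letters CCAAT, on either strand, were in 28.1% (25.4 to 30.9) of vehicle-only windows, 29.8% (28.0 to 31.6) of shared windows and 34.7% of all windows. The letters TATAAA were in 4.91% (3.68 to 6.4), 7.2% (6.2 to 8.3) and 9.49% of the same sets. The letters TGACG were in 28.8% (26 to 31.6) of vehicle-only windows and 27.8% of all windows. TGANTCA, with N any base, was in 5.2% (3.93 to 6.73) and 6.16%, so both intervals held the value of all windows. Among windows under a DMSO region, 34.5% (32.3 to 36.7) of those with 65% G plus C or more were vehicle-only, against 24.6% (22.2 to 27.1) at 55 to 65%. This held among weak peaks and not among stronger ones: below a −log10 q of 3 the values were 57.6% (54.0 to 61.0) and 45% (40 to 50.1), and at 3 or more they were 17.3% (15.1 to 19.7) and 15.2% (12.9 to 17.8). Base composition affects how well fragments amplify and sequence, and whether it did so unequally in the 4 libraries was not tested.

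The gene lists below were chosen with earlier results of these data known, so their counts are descriptions to be read against the 15.1% of all protein-coding genes with a vehicle-only region at an end, and against 30% of genes with a DMSO peak there that had no treated peak. Immediate early genes, which respond to growth factors and stress within minutes, had the largest count relative to list size among lists of over 10 genes. Of 32, 12 (37.5%) had a vehicle-only region, 8 of them with no treated peak at either end, and 19 had any DMSO peak. The count of 12 fell to 9 when a treated peak within 1 kb counted as present. The JUNB region lay 49 bp from a doxorubicin peak, and the SRF and KLF2 regions 60 and 612 bp from a combination peak. KLF2 was among the 8 with no treated peak in the windows. FOS, a subunit of the AP-1 factor, had 5.46-fold with 21 fragments at chr14:75278959-75279418 and no treated peak within 30253 bp. CCN1, a matrix signalling protein gene, had 4.77-fold with 10 fragments, KLF10, a zinc finger repressor of the TGF-β response, 4.48-fold with 12 and FOSL1, another AP-1 subunit, 4.4-fold with 16. KLF10 had OTS186935 and combination peaks elsewhere in its windows and FOSL1 an OTS186935 peak.

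Some genes for the enzymes and readers of H3 lysine 9 methylation, the pathway that OTS186935 targets, held vehicle-only regions. The lists are small, and their counts are not a result about the pathway. Of the 7 H3K9 methyltransferase genes, 3 had a DMSO peak at an end and all 3 had a vehicle-only region there: EHMT2 with 3.54-fold and 9 fragments, SUV39H1 with 2.97-fold and 7 fragments, and EHMT1 with 2.96-fold and 23 fragments at its 3′ end over a background of 7.1. SUV39H2, SETDB1, SETDB2 and PRDM2 had no DMSO peak at an end. EHMT2 had a peak of each treated library elsewhere in its windows and SUV39H1 a doxorubicin peak. EHMT1 had none in its windows, but an OTS186935 peak lay 558 bp from its region. So 1 of the 7 (14.3%) had a vehicle-only region and no treated peak at its ends, against 11% of all genes. The count of 3 fell to 2 when a treated peak within 1 kb counted as present. Of 24 genes for heterochromatin readers and silencing factors, 9 had any DMSO peak at an end. A vehicle-only region was there in 5 (20.8%), against 15.1% of all genes, and none of the 5 had a treated peak in its windows. MORC2, an ATPase that works with the HUSH silencing complex, had 5.52-fold with 8 fragments. CBX3, which encodes the H3K9 methyl reader HP1γ, had 4.91-fold, the deacetylase gene HDAC2 4.81-fold and the demethylase gene KDM4C 4.68-fold. A combination peak lay 625 bp from the KDM4C region, and under the 1 kb rule the count of 5 fell to 4.

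The lists of DNA damage response genes differed in their counts, and those with few vehicle-only regions also had few DMSO peaks. Among 15 genes of H2AX damage signalling, which include H2AX, ATM and MDC1, none had a vehicle-only region at an end, and 2 had any DMSO peak. Of 23 homologous recombination genes 2 had one and 5 had any DMSO peak, of which 3 had no treated peak. Of 20 PARP and end joining genes 1 had one, XRCC1 (3.65-fold), and 3 had any DMSO peak. TOP1 (3.41-fold, 5 fragments) and TOP1MT (2.57-fold, 11 fragments) were the 2 of 7 topoisomerase genes, and both had OTS186935 and doxorubicin peaks elsewhere in their windows. The nearest treated peak was 525 bp from the TOP1 region and 31 bp from the TOP1MT region, so the count fell to 0 when a treated peak within 1 kb counted as present. Of 20 p53 target genes 3 had a vehicle-only region: TP53I3 with 5.01-fold, the stress sensor gene SESN2 with 4.59-fold and the nucleotide excision repair gene XPC with 4.13-fold. SESN2 had a doxorubicin peak (6.41-fold) 384 bp away and a combination peak (5.48-fold) 328 bp away, both of higher fold than its DMSO peak. Of 25 genes of mitosis and replication licensing 2 did, both with an OTS186935 peak in the same windows: the mitotic kinase gene PLK1 with 5.95-fold and GINS2, a subunit gene of the replicative helicase, with 4.27-fold. GINS2 also had a doxorubicin peak (4.36-fold) in its windows.

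Genes of the tumour type had counts near those of all genes. Of 17 genes known to be altered in leiomyosarcoma 3 had a vehicle-only region, TSC1, NF1 (3.86-fold, 6 fragments) and CCNE1 (3.41-fold, with a doxorubicin peak elsewhere in its windows). Of 20 smooth muscle genes 3 did, the intermediate filament gene SYNM (4.01-fold), TPM1 (3.63-fold) and the myosin light chain gene MYL9 (2.8-fold), while 13 had any DMSO peak. The lists of other cell types had 1 of 14 epithelial genes (OVOL1, 2.48-fold), 1 of 12 neuronal genes (SYT1, 2.75-fold, with peaks of all 3 treated libraries in its windows) and 0 of 12 blood cell genes. Any DMSO peak was at an end of 10 epithelial and 8 neuronal genes. γH2AX peaks do not measure expression, so these counts do not check the cell type.

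Ribosomal protein and histone genes more often had a vehicle-only region than the 15.1% of all genes, as did several other lists. The share was 20.5% for collagen genes, 20.8% for heterochromatin readers and silencing factors and 20% for heat shock genes. Of 79 cytosolic ribosomal protein genes 18 (22.8%) had a vehicle-only region, 13 of them with no treated peak, and 27 had any DMSO peak, so 48.1% of those with a DMSO peak had no treated peak. RPS12 had 6.88-fold with 9 fragments, RPS20 6.68-fold with 10, RPL5 5.34-fold with 7 and RPL30 4.81-fold with 6. Of 69 replication-dependent histone genes 14 (20.3%) had a vehicle-only region, but these rest on 9 regions, some of which lie at the ends of several neighbouring genes. When a treated peak within 1 kb counted as present, the ribosomal protein count fell from 18 to 14 and the histone count from 14 to 12. Of the 33 histone genes with a DMSO peak 10 (30.3%) had no treated peak, close to the 30% of all genes. The region at chr1:149843328-149843695 (5.5-fold) lay at an end of both H2AC18 and H4C15, and chr1:149887623-149887967 (5.01-fold) at an end of H2AC20, H2AC21 and H2BC21. Histone genes are near-identical copies, so their reads are uncertain. Heat shock genes had 3 of 15, all without a treated peak: the chaperone genes HSPA5 (4.63-fold), HSP90B1 (3.44-fold) and DNAJB1 (2.18-fold, 20 fragments over a background of 8.65).

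Of 25 interferon response genes 5 had a vehicle-only region, IFI27 (6.87-fold, 16 fragments) and the antiviral GTPase gene MX1 (4.98-fold) at their 3′ ends, OAS2 (4.13-fold), IRF1 (3.62-fold) and IFIH1. MX1 had an OTS186935 peak in its windows. Of 44 collagen genes 9 did, led by COL26A1 (5.31-fold) and COL1A2 (4.81-fold), followed by COL6A2 (4.19-fold, 25 fragments over a background of 5.2) and COL5A3 (3.46-fold). Of these 9, 5 had no treated peak in their windows. COL26A1 had peaks of all 3 treated libraries, the combination peak 308 bp away, while COL6A2 had an OTS186935 peak and COL5A3 a doxorubicin peak. Of 240 zinc finger genes of chromosome 19, many of which encode KRAB repressors that recruit H3K9 methylation, 33 (13.8%) did. They were led by ZNF181 (6.27-fold, 14 fragments), ZNF626 (6.12-fold), ZNF8 (6.02-fold) and ZNF331 (5.78-fold, with an OTS186935 peak in its windows). Common fragile site genes had 2 of 18, PTPRD (4.81-fold) and MACROD2 (4.01-fold), both at listed starts. Olfactory receptor genes, which are silent in most tissues, had the lowest non-zero share, 7 of 390 (1.79%), and any DMSO peak in 28. OR11A1 and OR2H1 shared 1 region, and OR4D6 and OR5M8 had the same 4.13-fold, which is 5 fragments over the floor.

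**Figure D5:**
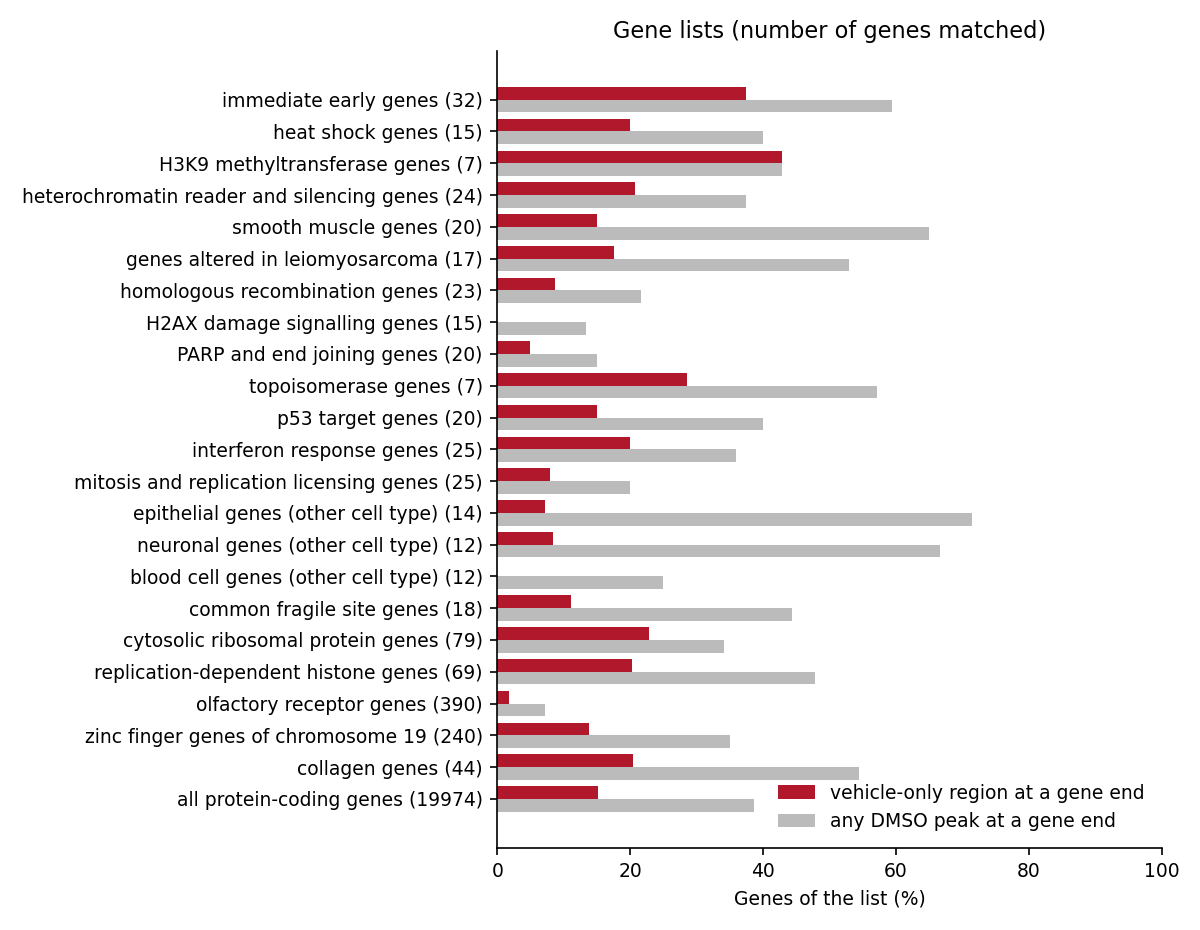
Share of the genes of each list (x axis, %) with a vehicle-only region at a gene end (dark bars) and with any DMSO peak there (light bars), with the number of genes matched in brackets and all protein-coding genes in the last row. Immediate early genes stand at 37.5% and ribosomal protein genes at 22.8%, against 15.1% of all genes, and the H2AX damage signalling and blood cell lists at 0.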

How the data were processed

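γH2AX ChIP-seq of SK-UT-1 cells gave 1 peak list per condition, on hg38. Per the submitters' processing notes the tools were Bowtie2 2.4.2, Picard 2.25.3, bedtools 2.30.0 and MACS2 2.2.7.1; the parameters were not given in the sources read here. In the deposited lists each row is a summit with the authors' score, fold enrichment over local background, −log10 p, −log10 q and summit offset, as written by the peak caller. Fold and −log10 p together gave a whole number of fragments at each summit (tolerance 0.002 in −log10 p; 575 of 76780 DMSO rows allowed more than 1 number). Rows were merged into union regions with Python 3.11.15, pandas 2.3.3, numpy 2.4.6 and scipy 1.17.1. A region's fold, −log10 p and −log10 q are each the highest among its rows of the library described. Its summit, fragments and background are those of the row of highest −log10 p. Gene ends are 1 kb either side of both ends of 19974 protein-coding genes of the RefSeq table (GRCh38.p14, the assembly that hg38 names), and starts are those of its promoter windows. With 1 library per condition, only counts and shares were computed, and depth is unknown.

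The members and the gene lists were chosen with earlier results of these data known. Genes named are the 20 of highest fold with a −log10 q of 5 or more at a gene end, the 10 regions of highest fold, the 10 genes with most regions, up to 4 per list by fold (all in lists of 8 genes or fewer) and the 5 regions nearest a treated peak. A few further list members are also named. The code was tested on simulated lists. Alternatives changed the q limit, the overlap rule, the length of the lists, the contigs and the window. Some results on named genes are not reported here.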

Additional observations from a re-analysis of the deposited data

How the results depend on the processing

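The number of vehicle-only regions, 29249, became 12064 with a −log10 q of 5 or more in all 4 lists, 3846 with that limit in the DMSO list alone and 10015 with lists of equal length. It stayed within 1.5 times under the other alternatives: 26049 when a treated peak within 1 kb counted as present, 34506 with a reciprocal overlap of 50%, 29264 with all contigs and 26650 with all lists cut at a −log10 p of 3.08, a limit chosen after seeing the data. The vehicle-only share of DMSO regions, 40.3%, was 64.7% with the q limit in all lists, 20.6% with it in the DMSO list alone, 35.9% with the 1 kb rule, 35.4% with equal lengths, 47.4% with reciprocal overlap and 39.2% with the common p limit. The share at gene ends, 8.36%, was 5.98% with the q limit on DMSO, 8.05% with the 1 kb rule, 7.29% with equal lengths, 14.4% with windows of 2.5 kb and 9.65% for whole regions in place of summits, the last also chosen after seeing the data. Genes with a vehicle-only region at an end, 3022, became 304, 2596 and 953 under the first 3 of these and 4736 with windows of 2.5 kb. The gene lists together had 129 such genes, 112 with the 1 kb rule and 199 with the wider windows; of 44 counts of single lists recomputed, 34 stayed within 1.5 times. The q limits, the shorter lists and the wider windows change the counts by construction. Of the 20 leading genes, 19 remained vehicle-only under the 1 kb rule and 20 under each of the 4 other alternatives run on them. Those 4 drop weaker peaks or ask for more overlap. None of them could have removed a gene chosen for a strong DMSO peak, so only the 1 kb rule was a check. No paired analysis was possible because each condition has 1 library. At a median of 6 fragments, most members are too shallow for a missing treated peak to show that signal was absent there.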
